A study of Mus musculus with 4 samples.

Results

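The 59 genes described here code for the cytosolic translation initiation factors (symbols that begin with Eif1 to Eif6) and the translation elongation factors (Eef1 and Eef2), together with the kinases and binding proteins that carry these names. They were taken by symbol from the 11603 genes of the authors' deposited table, with Eif2ak2, the antiviral kinase PKR, left out. The study sequenced RNA of muscle stem cells, the sorted satellite cells of mouse hindlimb muscle, in 2 samples labelled conditional Hairless knockout and 2 control samples. All 4 samples came from male C57BL/6 mice aged 4 to 5 months, and flow sorting kept VCAM1-positive cells that lacked CD31, CD45 and Sca1. The labels do not name the Cre driver or the allele that the knockout carries, nor say what the controls carry. Whether the 2 samples of a group are separate animals is not labelled either, so the tests below weigh differences against a spread that could be technical. From each sample 10 ng of total RNA was reverse transcribed with a full-length low-input kit. Hairless is a nuclear protein that works as a transcriptional corepressor, and the series' title names it an antagonist of histone demethylases.

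Translation begins when eIF2, carrying GTP and the initiator tRNA, joins the small ribosomal subunit with eIF1, eIF1A, eIF3 and eIF5, and when eIF4F (cap-binding eIF4E, scaffold eIF4G and helicase eIF4A) brings in the mRNA. eIF2B recharges eIF2 with GTP, and kinases that phosphorylate the alpha subunit of eIF2 slow this step. eEF1 then delivers aminoacyl-tRNA to the elongating ribosome and eEF2 moves the ribosome along the mRNA. Quiescent muscle stem cells are known for a low rate of protein synthesis, which is held down in part by phosphorylation of eIF2 alpha.

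Levels are given as RPKM, reads scaled to exon length and library size, on the authors' scale, so levels compare between genes per length. A difference is the log2 of knockout over control on the log2(RPKM + 0.5) scale, with its standard error (SE) or 95% interval from limma fitted to all 11603 genes, and with Benjamini-Hochberg adjusted p. Reads recovered from the table summed to 21757211 to 34101213 in the knockout libraries and 22577330 to 26990809 in the control libraries. The authors' library sizes were 75.5% to 75.7% of these sums in the knockout libraries and 85.9% to 92.4% in the control libraries. The median difference of all genes was -0.01 on the authors' scale and -0.20 after rescaling every library to the reads listed, so the medians of gene groups are also given relative to it. Hr, the targeted gene, was listed at 7.15 and 7.90 RPKM in the knockout libraries, against 9.28 and 8.94 RPKM in the control libraries (difference -0.26, SE 0.16, limma adjusted p = 0.431). Both knockout libraries were lower for Hr, but the deleted part is not given in the labels, so a value over the whole gene does not check them. Markers of muscle stem cells summed to 3556 and 3748 RPKM in the knockout libraries and 2650.1 and 2144 RPKM in the control libraries, but Sdc4 alone made up most of this sum, with 3031 and 3260 RPKM in the knockout libraries against 2121 and 1582 RPKM in the control libraries. The 8 markers had a median difference of 0.03, with 4 above 0 and 4 below. Pax7 had 9.03 and 13.1 RPKM in the knockout libraries against 8.23 and 12.9 RPKM in the control libraries, and Itga7 had a difference of -0.89 with an adjusted p of 0.00849 in the authors' deposited table. Sdc4, higher in knockout, had an adjusted p of 0.0028 there. The 7 listed markers of myofibres, the differentiated muscle cells, summed to 64.1 and 53.0 RPKM in knockout and 178 and 713 RPKM in control. This sum was thus higher in control, most of all in control 2. Most of it in control 1 was Acta1, with 36.5 and 31.9 RPKM in the knockout libraries and 144 and 455 RPKM in the control libraries. Both knockout libraries lay below control for 6 of the 7, but often by little against control 1. Ckm had 3.39 and 2.93 RPKM in knockout and 3.63 and 39.4 RPKM in control. Tnnt3 overlapped, with 4.18 and 5.86 RPKM in knockout and 5.58 and 70.1 RPKM in control. The 5 markers of endothelium summed to 22.4 and 31.8 RPKM in the knockout libraries and 27.3 and 33.0 RPKM in the control libraries, the 4 of blood cells to 11.9 and 18.3 RPKM against 16.3 and 16.0 RPKM, and the 4 of fibro-adipogenic cells to 337 and 269 RPKM against 429 and 429 RPKM. Within the last list Col3a1 had 204 and 96.1 RPKM in the knockout libraries and 294 and 323 RPKM in the control libraries, while Ly6a, the gene of the Sca1 antigen, lay the other way with 77.4 and 80.7 RPKM in the knockout libraries and 47.9 and 49.5 RPKM in the control libraries. The part of these other transcripts in the differences below was not tested, and fewer cells of a type cannot be told apart from less RNA per cell in such bulk samples.

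The promoters of 2 paralog pairs are shown because the authors' deposited table calls Eif1, Eif1b and Eif5a higher in knockout at an adjusted p under 0.05, while Eif5a2 was lower in both knockout libraries. Eif1 and Eif1b code for near-identical forms of the start-codon scanning factor eIF1, and Eif5a and Eif5a2 for the hypusine-bearing factor eIF5A that keeps ribosomes moving at difficult peptide bonds. Each sequence is the 250 bases before a RefSeq start site in GRCm38.p6, written 5′ to 3′ on the strand of the gene. Capitals mark the palindromic E-box CACGTG, the core that Myc-Max and other basic helix-loop-helix factors bind, and the ETS core CCGGAAGT. The window of Eif1 lies at chr11:100319699-100319948 on the plus strand and holds neither motif. The window of Eif1b lies at chr9:120492356-120492605 on the plus strand and holds 1 E-box. For Eif5a, 2 of 6 RefSeq start sites are shown, both on the minus strand. The window directly before the gene as listed in the table, at chr11:69921959-69922208, holds neither motif. The window at chr11:69920631-69920880 holds 1 E-box and 1 ETS core and was chosen because it does. Of the other 4 windows of Eif5a, 2 hold an E-box only and 2 hold neither motif. The window of Eif5a2 lies at chr3:28781027-28781276 on the plus strand and holds 2 E-boxes and 2 ETS cores.
Eif1: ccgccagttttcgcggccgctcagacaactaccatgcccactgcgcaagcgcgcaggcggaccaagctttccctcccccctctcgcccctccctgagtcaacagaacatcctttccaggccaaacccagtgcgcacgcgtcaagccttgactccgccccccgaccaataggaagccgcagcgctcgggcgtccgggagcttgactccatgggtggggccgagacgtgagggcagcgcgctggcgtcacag
Eif1b: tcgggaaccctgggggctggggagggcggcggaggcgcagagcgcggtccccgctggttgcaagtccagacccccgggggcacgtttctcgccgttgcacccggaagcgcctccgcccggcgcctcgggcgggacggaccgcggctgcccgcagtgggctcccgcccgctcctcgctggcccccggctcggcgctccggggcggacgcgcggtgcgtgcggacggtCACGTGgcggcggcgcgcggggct
Eif5a before the listed gene: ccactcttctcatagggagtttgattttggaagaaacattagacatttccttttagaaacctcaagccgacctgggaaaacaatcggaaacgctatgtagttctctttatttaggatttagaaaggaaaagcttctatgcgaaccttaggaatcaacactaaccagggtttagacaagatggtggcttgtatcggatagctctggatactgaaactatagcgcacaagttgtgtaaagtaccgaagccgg
Eif5a with both motifs: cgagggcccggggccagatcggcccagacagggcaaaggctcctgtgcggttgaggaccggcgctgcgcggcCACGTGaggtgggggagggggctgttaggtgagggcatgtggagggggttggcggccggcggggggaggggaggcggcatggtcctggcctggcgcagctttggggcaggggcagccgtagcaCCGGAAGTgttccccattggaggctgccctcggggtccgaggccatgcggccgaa
Eif5a2: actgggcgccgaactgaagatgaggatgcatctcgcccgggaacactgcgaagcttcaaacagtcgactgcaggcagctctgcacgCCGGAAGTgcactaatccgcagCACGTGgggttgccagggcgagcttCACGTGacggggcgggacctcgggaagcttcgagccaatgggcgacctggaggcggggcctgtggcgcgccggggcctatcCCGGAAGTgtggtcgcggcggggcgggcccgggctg

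RefSeq windows of 250 bases before to 50 bases after the start could be matched by Entrez ID for 47 of the 59 genes. On either strand, an E-box CACGTG was present for 12 of the 47 (25.5%), against 1115 of 9271 listed genes with a window and 8.09% of all genes with one. The 12 were Eef2, Eef2k, Eif1b, Eif3a, Eif3f, Eif3k, Eif4a1, Eif4e, Eif4g1, Eif4h, Eif5a and Eif5a2. Their median difference was 0.18, with knockout libraries above control for 6 and below for 2. The 35 genes without an E-box had a median of 0.16, with 14 above and 4 below. The ETS core CCGGAAGT was present for 9 of the 47, against 9.42% of the listed genes and 4.31% of all genes with a window. Genes with and without it had median differences of 0.16 and 0.12. These are matches of letters, not measured binding sites. Myc, which codes for the E-box factor Myc, was listed at 992 and 1006 RPKM in the knockout libraries, against 720.2 and 722 RPKM in the control libraries (difference 0.47, limma adjusted p = 0.219), and it was named here after its values were seen. At its level, 100 RPKM or more, 65.2% of all genes had both knockout libraries above control. A part of Myc in the differences was not tested.

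In 28 of the 59 genes both knockout libraries lay above both control libraries, which was so for 25.0% of all genes, and in 6 both lay below, which was so for 26.2% of all genes. The groups overlapped in the other 25. The difference was above 0 for 41 of the 59, against 48.2% of all genes. The median difference of the 59 genes was 0.17, which is 0.18 above the median of all genes. Scaled by the reads listed, that median was -0.06 and 0.14 above the median of all genes, and the differences of 17 genes changed sign. No gene of the 59 had a limma adjusted p under 0.05 in either direction; among all genes limma called 0.00% higher and 0.00862% lower. limma-voom on the recovered reads likewise called 0 of the 59. The smallest limma adjusted p among them was 0.163, for Eif1b. At an unadjusted limma p under 0.05, 11 of the 59 were higher and 1 was lower, against 10.3% and 7.69% of all genes. For 4 of the 59 the authors' deposited table had an adjusted p under 0.05 and all 4 were higher (Eif1, Eif1b, Eif5a and Eif3j2), against 3.59% of all genes called higher and 4.26% called lower there.

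The 59 genes together took 2.58% and 2.57% of the reads listed in the knockout libraries, against 2.39% and 2.29% in the control libraries. This share does not depend on the library size used, and both knockout libraries lay above both control libraries. Eef1a1, Eif1, Eif5a and Eef2 alone held 53.8% and 57.4% of the reads of the 59 genes in the knockout libraries, and 49.9% in control 1 with nearly the same share in control 2. The rest of the 59 genes together took a share of the reads listed that overlapped between the groups. The higher share in knockout was thus that of these abundant genes. The share of Eef1a1 within the 59 was 19.9% and 20.1% in the knockout libraries and 19.6% and 20.4% in the control libraries, and overlapped.

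**Figure D1:**
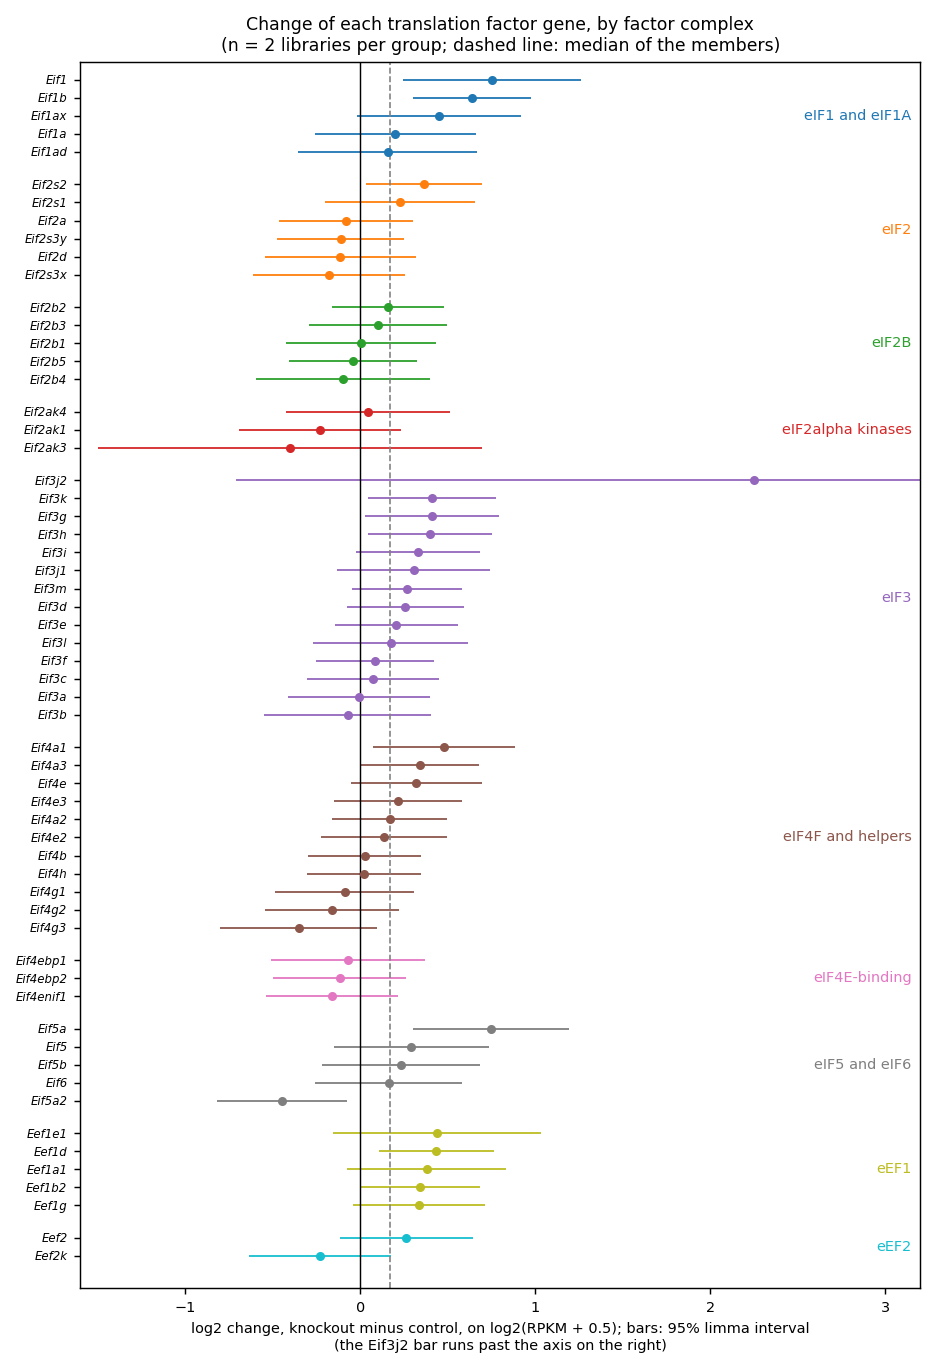
Log2 difference (knockout over control, log2(RPKM + 0.5) scale) of each of the 59 genes, grouped by complex; points are limma estimates, bars are 95% intervals and the dashed line is the median of the 59 genes (0.17). The eIF1, eIF3 and eEF1 genes lie mostly to the right of 0 and the eIF2 alpha kinases and eIF4E-binding proteins mostly at or left of it; 17 of the 59 differences change sign when libraries are scaled by the reads listed, and the interval of Eif3j2 runs past the axis.

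Among the genes of eIF1 and eIF1A, which scan for the start codon, 3 of 5 had knockout libraries above control and 0 had them below. At the levels of these 5 genes, 34.0% (10 to 100 RPKM) and 65.2% (100 RPKM or more) of all genes lay above. The median difference of the 5 was 0.45 (0.22 when scaled by the reads listed, where 2 of the 5 change sign). Eif1 (chr11:100319885-100322096, build mm10) was listed at 2541 and 3052 RPKM in the knockout libraries, against 1789.6 and 1528 RPKM in the control libraries. Every knockout value exceeded every control value, and the knockout mean of 2796 ± 361 RPKM was 1.69-fold the control mean of 1659 ± 185 RPKM (SD, n = 2 each). The difference of 0.75 (95% interval 0.24 to 1.26) had a limma adjusted p of 0.189, and in the authors' deposited table its adjusted p was 0.00818. Its paralog Eif1b (chr9:120492606-120495327) was listed at 147 and 136 RPKM in the knockout libraries, against 93.8 and 87.5 RPKM in the control libraries. The replicates of Eif1b lay close together within each group. Its difference was 0.64 (95% interval 0.30 to 0.98) with a limma adjusted p of 0.163, and its adjusted p in the authors' deposited table was 0.0472. Eif1 had 17.3 and 22.5 times the RPKM of Eif1b in the knockout libraries and 19.1 and 17.5 times in the control libraries, so the balance of the paralogs overlapped between groups. Of the eIF1A genes, Eif1ax had 68.3 and 54.4 RPKM in the knockout libraries, each above both control libraries (difference 0.45, limma adjusted p = 0.290), while Eif1a and the related Eif1ad overlapped with differences of 0.20 and 0.16.

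Among eIF2 and its relatives, Eif2s2 alone of 6 genes had knockout libraries above control, and 0 had them below, against 25.0% and 26.2% of all genes. Eif2s2, the beta subunit, was listed at 93.6 and 93.9 RPKM in the knockout libraries, against 76.2 and 69.4 RPKM in the control libraries (difference 0.36, SE 0.13, limma adjusted p = 0.244). The alpha subunit Eif2s1 had 76.4 and 61.9 RPKM in the knockout libraries and 64.0 and 53.6 RPKM in the control libraries. These ranges overlapped, with a difference of 0.23 that changes sign when scaled by the reads listed. The gamma subunit has an X-linked and a Y-linked gene. Eif2s3x had 6.90 and 5.76 RPKM in the knockout libraries and 7.57 and 6.87 RPKM in the control libraries, and Eif2s3y had 22.6 and 25.1 RPKM against 27.2 and 24.5 RPKM. Both overlapped, with Eif2s3y the more abundant in all 4 libraries. The alternative tRNA-delivery factors Eif2a and Eif2d had differences of -0.08 and -0.11, and the median of all 6 was -0.10 (-0.31 when scaled by the reads listed).

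The 5 genes of eIF2B, the guanine nucleotide exchange factor, had a median difference of 0.00, close to the -0.01 of all genes, and -0.22 when scaled by the reads listed. Their limma adjusted p ranged from 0.551 to 0.995. The most abundant, Eif2b2, had 42.4 and 41.6 RPKM in the knockout libraries and 37.7 and 37.3 RPKM in the control libraries. The knockout libraries of Eif2b2 lay above control by a small step of 0.16 (95% interval -0.16 to 0.48), which changes sign when scaled by the reads listed.

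The 3 eIF2 alpha kinases sense different stresses: Eif2ak1 (HRI) haem shortage, Eif2ak3 (PERK) unfolded protein in the endoplasmic reticulum and Eif2ak4 (GCN2) uncharged tRNA. Eif2ak1 was listed at 6.13 and 4.78 RPKM in the knockout libraries, against 6.34 and 6.52 RPKM in the control libraries. Both knockout libraries were below control for this gene, but the difference of -0.23 (95% interval -0.69 to 0.23) had a limma adjusted p of 0.559. Eif2ak3 had 3.26 and 1.19 RPKM in the knockout libraries and 3.84 and 2.05 RPKM in the control libraries, and Eif2ak4 had 2.18 and 2.78 RPKM against 2.20 and 2.56 RPKM. Both overlapped between groups, and Eif2ak3 varied more between replicates than between group means. Their differences were -0.40 (95% interval -1.49 to 0.69) and 0.04 (95% interval -0.43 to 0.51).

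eIF3 is the largest initiation factor and holds the small ribosomal subunit open for mRNA. Of its 14 genes, 9 had knockout libraries above control, 0 had them below and 5 overlapped. Of all genes 25.0% lay above, but so did 34.0% of those at 10 to 100 RPKM and 65.2% of those at 100 RPKM or more, the levels of every eIF3 gene but Eif3j2. The median difference was 0.26, or 0.03 when scaled by the reads listed, where 4 of the 14 change sign. The genes of the octamer core (a, c, e, f, h, k, l and m) had a median of 0.19 and those of the b, d, g and i module a median of 0.29. Eif3k (chr7:28971373-28981814), a peripheral core subunit, was the most abundant on this scale and had 275 and 295 RPKM in the knockout libraries, against 201 and 228 RPKM in the control libraries. The groups did not overlap, and the difference was 0.41 (SE 0.15, limma adjusted p = 0.241). Eif3g and Eif3h had similar differences of 0.41 and 0.40, with 279 and 236 RPKM in the knockout libraries and 199 and 187 RPKM in the control libraries for Eif3g, and 246 and 274 RPKM against 201 and 192 RPKM for Eif3h. Of the large scaffold subunits, Eif3a had 106 and 87.0 RPKM in the knockout libraries and 104 and 90.1 RPKM in the control libraries, and Eif3b had 121 and 87.4 RPKM against 103 and 114 RPKM. Both overlapped between groups.

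Eif3j2, 1 of a pair of genes for the loosely bound subunit eIF3j, stood apart. It was listed at 1.16 and 25.4 RPKM in the knockout libraries, against 0.997 and 0.765 RPKM in the control libraries, which came from 71 and 991 reads and from 55 and 38 reads. The level was thus high in knockout 2 alone. The difference was 2.25 (95% interval -0.71 to 5.21, limma adjusted p = 0.380) over all libraries and 0.27 (limma adjusted p = 0.585) without knockout 2. Without knockout 1 it was 4.23 with a limma adjusted p of 0.026, a fit in which knockout 2 is the lone knockout library and is assumed to vary like the controls. In the authors' deposited table the adjusted p of Eif3j2 was 0.0197. Its value is uncertain for a further reason: 90.8% of the 50-base windows of its transcripts were also found in transcripts of Eif3j1, so reads could be assigned to either gene or dropped. Eif3j1 itself had 54.9 and 44.3 RPKM in the knockout libraries and 43.8 and 36.2 RPKM in the control libraries. The ratio of Eif3j2 to Eif3j1 was 0.0210 and 0.572 in the knockout libraries and 0.0228 and 0.0211 in the control libraries.

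In eIF4F and its helpers, 6 of 11 genes had knockout libraries above control, 1 had them below and 4 overlapped. Their levels ran from 11.6 to 347 RPKM. At 10 to 100 RPKM 34.0% of all genes lay above and 17.9% below, and at 100 RPKM or more 65.2% and 5.73%. All 3 helicase genes (Eif4a3 among them, known mainly for its place in the exon junction complex) and all 3 cap-binding genes had knockout libraries above control, with median differences of 0.34 and 0.22, although Eif4a2, Eif4e2 and Eif4e3 change sign when scaled by the reads listed. The 3 scaffold genes had a median of -0.16. They are also long, with summed exons of 7227 to 11063 bases, and longer genes had lower differences among all genes; the part of length was not tested. Eif4a1 (chr11:69666936-69672423), the main helicase gene, was listed at 411 and 396 RPKM in the knockout libraries, against 320.3 and 261 RPKM in the control libraries. The groups did not overlap, with a difference of 0.48 (95% interval 0.08 to 0.89), a limma adjusted p of 0.229 and an adjusted p of 0.0895 in the authors' deposited table. Its paralog Eif4a2 had 48.0 and 50.7 RPKM in the knockout libraries and 45.3 and 42.4 RPKM in the control libraries. Eif4a1 thus exceeded Eif4a2 8.56 and 7.82 times in the knockout libraries and 7.06 and 6.17 times in the control libraries. The counts of Eif4a1, Eif4a2 and Eif4g2 could include reads of small nucleolar RNAs that lie within them.

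The cap-binding gene Eif4e had 89.2 and 76.9 RPKM in the knockout libraries and 70.3 and 62.3 RPKM in the control libraries (difference 0.32). The scaffold Eif4g1 had 47.1 and 37.6 RPKM in the knockout libraries and 45.6 and 43.9 RPKM in the control libraries, and the cap-independent scaffold Eif4g2 had 152 and 134 RPKM against 172 and 147 RPKM. Both overlapped, with differences of -0.09 and -0.16. Eif4g3 was listed at 9.27 and 10.9 RPKM in the knockout libraries, against 11.7 and 14.4 RPKM in the control libraries. Both knockout libraries were lower for this scaffold, with a difference of -0.35 (95% interval -0.80 to 0.10, limma adjusted p = 0.368). The helicase cofactors Eif4b and Eif4h had differences of 0.03 and 0.02.

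The eIF4E-binding proteins keep eIF4E from eIF4G until mTORC1 phosphorylates them. Eif4ebp1, by far the most abundant of the 3, was listed at 365 and 291 RPKM in the knockout libraries and 320.3 and 365 RPKM in the control libraries. The groups overlapped, with a difference of -0.07 (95% interval -0.51 to 0.37). Eif4ebp1 was at 4.09 and 3.78 times Eif4e in the knockout libraries and 4.56 and 5.86 times in the control libraries, so the ratio of inhibitor to target was lower in both knockout libraries. Eif4ebp2 had 7.83 and 7.87 RPKM in the knockout libraries and 8.84 and 8.29 RPKM in the control libraries. Eif4enif1, which carries eIF4E into the nucleus, had 7.66 and 7.40 RPKM against 8.33 and 8.62 RPKM. Both were below control in both knockout libraries, with differences of -0.12 and -0.16 and no limma adjusted p under 0.05. Under 10 RPKM, the level of Eif4ebp2 and Eif4enif1, 32.9% of all genes lay below control.

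**Figure D2:**
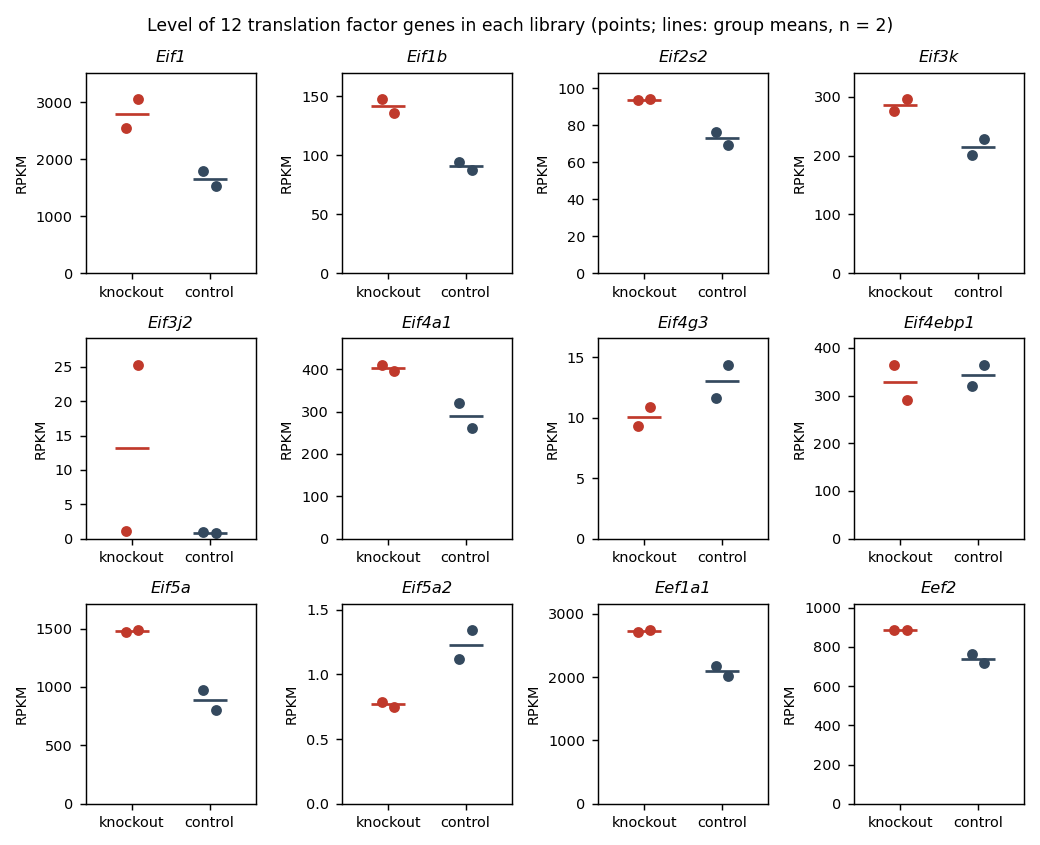
RPKM of 12 genes in each library (points; bars are group means), with the 2 knockout libraries left of the 2 control libraries in each panel. Knockout values do not overlap control values for Eif1, Eif1b, Eif2s2, Eif3k, Eif4a1, Eif5a, Eef1a1 and Eef2 (higher in knockout on the authors' scale) nor for Eif4g3 and Eif5a2 (higher in control), while Eif3j2 is high in knockout 2 alone and Eif4ebp1 overlaps.

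Eif5a and Eif5a2, paralogs for the elongation-promoting factor eIF5A, differed in opposite directions. At 100 RPKM or more, the level of Eif5a, 65.2% of all genes lay above control. Under 10 RPKM, the level of Eif5a2, 32.9% of all genes lay below control, and the part of level was not tested. Eif5a (chr11:69916714-69921958) was listed at 1474 and 1489.8 RPKM in the knockout libraries, against 971 and 800.0 RPKM in the control libraries. Every knockout value exceeded every control value, and the mean of 1482 ± 11.4 RPKM in knockout was 1.67-fold that of 886 ± 121 RPKM in control (SD, n = 2 each). The difference was 0.75 (95% interval 0.30 to 1.20) with a limma adjusted p of 0.177, and the adjusted p in the authors' deposited table was 0.00341. Eif5a2 (chr3:28781276-28798846) was listed at 0.786 and 0.751 RPKM in the knockout libraries, against 1.12 and 1.34 RPKM in the control libraries. Both knockout libraries were lower for this scarce paralog, with a difference of -0.44 (95% interval -0.82 to -0.07), a limma adjusted p of 0.228 and an adjusted p of 0.0695 in the authors' deposited table. Eif5a exceeded Eif5a2 1875 and 1984 times in the knockout libraries and 871 and 595 times in the control libraries. Eif5, which triggers GTP hydrolysis on eIF2, had 361 and 367 RPKM in the knockout libraries and 339 and 260.2 RPKM in the control libraries, also without overlap (difference 0.29). Eif5b, which joins the subunits, and Eif6, which keeps the large subunit apart, overlapped between groups with differences of 0.23 and 0.16, the second of which changes sign when scaled by the reads listed.

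The 5 eEF1 genes had differences of 0.33 to 0.44 and a median of 0.38, or 0.14 when scaled by the reads listed, where 0 of the 5 change sign. In 4 of the 5 both knockout libraries lay above both control libraries. That was so for 25.0% of all genes, 34.0% of those at 10 to 100 RPKM and 65.2% of those at 100 RPKM or more. All 5 eEF1 genes lay at 40.9 RPKM or more. Eef1a1 (chr9:78478449-78489151), the GTPase that carries aminoacyl-tRNA, was listed at 2715 and 2751 RPKM in the knockout libraries, against 2179.7 and 2024 RPKM in the control libraries. The knockout libraries lay close together and above both control libraries, and the difference was 0.38 (95% interval -0.07 to 0.83, limma adjusted p = 0.340). Eef1d, a subunit of the exchange factor for Eef1a1, had 45.6 and 48.5 RPKM in the knockout libraries and 35.6 and 33.7 RPKM in the control libraries (difference 0.44, SE 0.13, limma adjusted p = 0.206). Its partners Eef1b2 and Eef1g had differences of 0.34 and 0.33 without overlap. Eef1e1, a scaffold protein of the tRNA synthetase complex also called AIMP3, had 87.7 and 60.1 RPKM in the knockout libraries and 61.9 and 46.1 RPKM in the control libraries, and overlapped. Eef1a2, the muscle fibre paralog of Eef1a1, was not among the genes of the table.

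Eef2 (chr10:81176631-81182507), the translocase, was listed at 886 and 887 RPKM in the knockout libraries, against 761 and 715 RPKM in the control libraries. The groups did not overlap, and the difference was 0.26 (95% interval -0.12 to 0.65, limma adjusted p = 0.419). Eef2k, the kinase that inactivates it, had 2.06 and 1.83 RPKM in the knockout libraries and 2.30 and 2.41 RPKM in the control libraries. Both knockout libraries were lower for Eef2k, with a difference of -0.23 (95% interval -0.63 to 0.18, limma adjusted p = 0.505). Eef2 exceeded Eef2k 430.1 and 486 times in the knockout libraries and 330.3 and 296 times in the control libraries. Taking the 3 eIF2 alpha kinases, the 3 eIF4E-binding genes and Eef2k together, 0 of 7 had knockout libraries above control, 4 had them below and 3 overlapped. Of all genes 25.0% lay above and 26.2% below. Under 10 RPKM, the level of 6 of the 7, 15.9% of all genes lay above and 32.9% below. The median difference of the 7 was -0.16.

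The difference of a gene went with its level, among the 59 and among all genes. Spearman's rho between mean RPKM and difference was 0.59 across the 59 genes and 0.32 across all 11603 genes, which share libraries and are not independent. Of the 19 genes at 100 RPKM or more, 13 (68.4%) had knockout libraries above control and 0 had them below. Of all genes at that level 65.2% lay above and 5.73% below, and the medians were 0.33 for the 19 and 0.35 for all. Of the 28 genes between 10 and 100 RPKM, 46.4% lay above and 3.57% below, against 34.0% and 17.9% of all genes there, with medians of 0.17 and 0.08. Of the 12 genes under 10 RPKM, 16.7% lay above and 41.7% below, against 15.9% and 32.9% of all genes there, with medians of -0.14 and -0.08. The eIF2 alpha kinases, the eIF4E-binding genes apart from Eif4ebp1, and Eef2k were among these scarce genes. The difference was also lower in genes of greater summed exon length, with a rho of -0.46 across the 59 and -0.30 across all genes, and length and level were themselves related (rho -0.51 and -0.33). The part of level and length in the differences between complexes was not tested further.

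**Figure D3:**
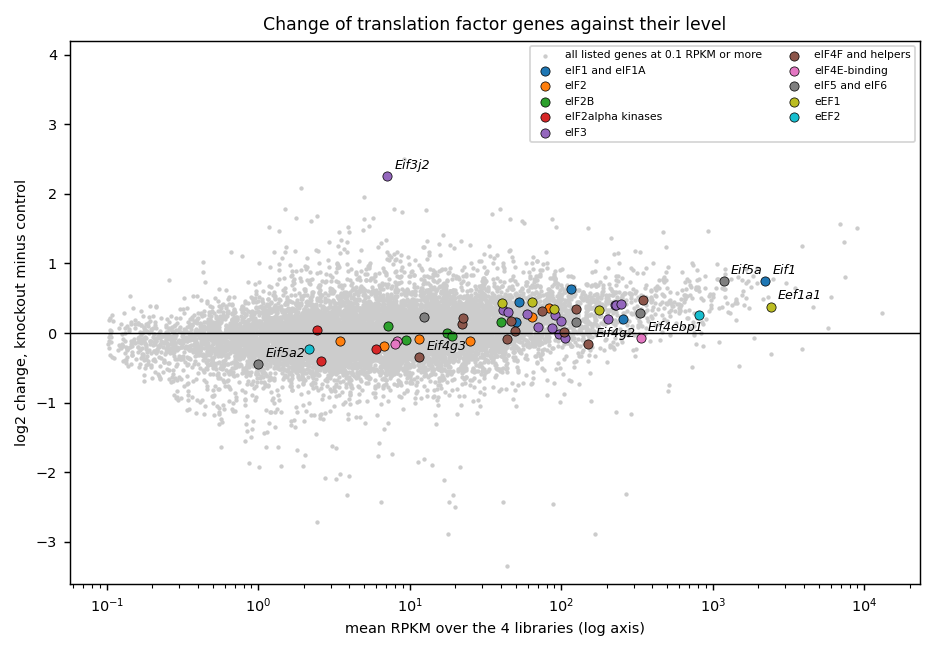
Log2 difference (knockout over control) against mean RPKM (log axis) for the genes at 0.1 RPKM or more (grey) and the 59 factor genes (coloured by complex). The factor genes at 100 RPKM or more have a median difference of 0.33, close to the 0.35 of all genes at that level, and those under 10 RPKM a median of -0.14; scaling by the reads listed moves the median of all genes to -0.20.

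The other genes of translation and its control, only some of which act on these factors, showed no common direction. Of 69 such genes in 6 lists, 68 were listed; 16 had knockout libraries above control and 14 below, near the 25.0% and 26.2% of all genes, and their median difference was -0.01. Limma and the authors' deposited table each called 0 of them at an adjusted p under 0.05, and at an unadjusted limma p under 0.05 limma had 7 higher and 1 lower, against the 10.3% and 7.69% of all genes given above. In the mTORC1 pathway and eIF4 kinases, 2 of 22 lay above (Rheb and Rps6) and 8 below, with a median of -0.13. Rps6, the ribosomal protein that S6 kinase phosphorylates, had 408 and 451 RPKM in the knockout libraries and 319 and 281 RPKM in the control libraries (difference 0.52, limma adjusted p = 0.202). In the list of eIF2 phosphatase and eIF2 alpha response genes, 3 of 9 lay above and 0 below. Ppp1r15a, the stress-induced subunit that directs a phosphatase to eIF2 alpha, had 799 and 885 RPKM in the knockout libraries and 587 and 565 RPKM in the control libraries (difference 0.55, limma adjusted p = 0.195). Atf4, the transcription factor translated when eIF2 alpha is phosphorylated, was higher per length, with 1076 and 1202 RPKM in the knockout libraries and 812 and 729 RPKM in the control libraries (difference 0.56, limma adjusted p = 0.203). The list's median of 0.18 turns to -0.05 when scaled by the reads listed. Rps6, Ppp1r15a and Atf4 all lay at 100 RPKM or more, where 65.2% of all genes lay above control.

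Of the 12 genes of poly(A)-binding and initiation helpers, 5 lay above and 2 below. Beside this list and those that follow, 25.0% of all genes lay above and 26.2% below. Ddx3x, a helicase that helps mRNAs with structured leaders, had 176 and 164 RPKM in the knockout libraries and 134 and 127 RPKM in the control libraries. Of 7 genes of termination and ribosome rescue, 2 lay above and 1 below, and Etf1, the release factor eRF1, had 202 and 184 RPKM in the knockout libraries and 169 and 148 RPKM in the control libraries. Both abundant genes lay above control without overlap, with limma adjusted p of 0.238 and 0.369. At their level, 100 RPKM or more, 65.2% of all genes lay above control. Of 9 listed genes of mitochondrial translation, 2 lay above and 3 below with a median of -0.18. Tufm, the mitochondrial elongation factor and the highest of them in RPKM, had 32.0 and 22.1 RPKM in the knockout libraries and 28.6 and 31.7 RPKM in the control libraries, and overlapped (difference -0.18). Mrrf, the mitochondrial ribosome recycling factor and the highest in reads, had 13.2 and 15.8 RPKM in the knockout libraries and 10.8 and 9.68 RPKM in the control libraries. Of 9 genes for the enzymes that make hypusine on eIF5A and diphthamide on eEF2, 2 lay above and 0 below, with a median of 0.05 that is -0.14 when scaled by the reads listed. Dph3, of the diphthamide pathway, had 29.5 and 35.3 RPKM in the knockout libraries and 25.7 and 20.7 RPKM in the control libraries (limma adjusted p = 0.253).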

How the data were processed

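RNA of 4 muscle stem cell samples (2 knockout, 2 control) was analysed. The authors deposited 1 table of 11603 genes; STAR, featureCounts of Subread, edgeR and Trim Galore were used on build mm10 (GRCm38), per the submitters' processing notes, with versions, strand setting and row filter not given in the sources used here. Headers name no unit, but the deposited values behaved as RPKM computed by the authors: each value times the exon length gave whole reads in 100% of values (tolerance 0.01). Columns beginning Ct were matched to control and the remaining ones, beginning Fl, to knockout; the labels do not spell out Fl. The adjusted p-values of the authors' deposited table are a q-value per gene, from a model that the headers do not state.

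Differences between groups were tested with limma 3.58.1 (R 4.3.3), with an intensity trend, on log2(RPKM + 0.5) over all genes of all 4 libraries with no filter and Benjamini-Hochberg adjustment at 0.05; a fold on this scale understates the difference of low genes. An exact two-sided permutation test of 2 against 2 cannot go below p = 0.333 and was not used. The step was tested on simulated data with changes larger than those of all factor genes but Eif3j2. It thus does not show how well changes as small as theirs are found. Intervals on the share of reads are 95% Wilson intervals and cover counting error only; they run from 2.57% to 2.59% in knockout 1 and from 2.28% to 2.30% in control 2. The genes, complexes and lists were chosen with earlier results of these data known. The text names, in each complex, the gene with the highest mean RPKM, the gene with the largest difference at 5 CPM or more and every gene past a threshold, then paralogs and partners, and in each other list the gene with the highest mean CPM where none passed. Genes beyond this rule (Myc, Rheb, Atf4, Tufm and further complex subunits) were chosen after their values were seen. Exon overlaps with genes on the opposite strand, read from GENCODE vM21, touch genes that include Eif5b, Eif3j1, Eif3d, Eif2ak1, Eif2ak3 and Eif1ad. Their counts are uncertain where strand was not used. Eif4e3 overlaps a protein-coding gene on its own strand over 373 bases, so its count is uncertain with or without strand. Shared 50-base windows were counted in the GENCODE transcripts. The alternatives were other pseudocounts, a filter, scaling by reads listed, limma-voom on recovered reads, limma without the trend, a replicate block and leaving out each library.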

Additional observations from a re-analysis of the deposited data

How the results depend on the processing

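Scaled by the reads listed, the median difference of all genes was -0.20 (-0.01 on the authors' scale), that of the 59 factors -0.065 and that of the other translation genes minus all genes -0.034. With a minimum mean of 1 RPKM the median of all genes was 0.0060, and without 1 library at a time it ran from -0.016 to -0.0016. Over all genes, limma-voom called 3 higher and 8 lower, limma without the trend 0 lower, and fits without 1 library 0 to 1 higher and 0 lower. No label pairs the replicate numbers, and 2 pairs share only a number: replicate differences correlated at r = 0.414 over 10007 genes. With the replicate block limma called 591 genes higher and 413 lower, and 1 factor higher (Eif1b, adjusted p = 0.0315). Fits without 1 library called 0 to 1 factors higher, the 1 being Eif3j2 without knockout 1. The median of the factors minus that of all genes stayed above 0 in every setting run, from 0.10 without control 2 to 0.29 without control 1. With 2 libraries a group, 9 factors changed sign without knockout 2, 5 without control 2, 4 without control 1 and 3 without knockout 1. The authors' model could not be refitted from the sources used here.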
